A study of Mus musculus with 4 samples.

Results

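Heat shock proteins and chaperones are the proteins that help other proteins fold, assemble, cross membranes or be removed. Their genes were followed here in total RNA from adult mouse testis, in animals that lack or carry Nef-sp, a testis-specific RNA exonuclease annotated as 2610020H08Rik. Members were taken by name alone: every gene with exon reads on its own strand whose symbol starts with Hsp, with Dnaja, Dnajb or Dnajc, or with Cct and a digit from 2 to 8. This gave 73 of the 12415 genes listed with exon sense reads, and 71 of them were among the 10728 that passed the expression filter. Dnajc22 and Dnajc6, with 0 to 4 reads in every library, did not pass. The germ cell genes Dnajb3, Dnajb7 and Hspb9 were not analysed here.

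Nef-sp -/- and Nef-sp +/- males of the C57Bl/6J background were compared at postnatal day 60, and each genotype had 2 libraries. The null allele carries a 23-bp deletion that shifts the reading frame, made with a Cas9 nickase and paired guides, and the heterozygous controls carry 1 copy of it as well. Libraries were strand specific, depleted of ribosomal RNA and read for 50 cycles, and held 20659865 to 34442517 counted reads. The sources used here do not say whether each library is 1 animal. The p-values thus set the difference between genotypes against the spread between these libraries, not against a known spread between animals. The spread between libraries is estimated with the help of all genes tested.

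Hsp70 proteins bind exposed stretches of unfolded proteins in a cycle driven by ATP. J-domain proteins, named Dnaja, Dnajb and Dnajc, bring clients to Hsp70 and start ATP hydrolysis, and Hsp110 proteins and Hspbp1 release the nucleotide. Hsp90 acts late on kinases and receptors, the CCT ring folds tubulin and actin, and small heat shock proteins hold unfolded proteins without ATP. The testis is known for forms of these proteins that are made in male germ cells, such as Hspa2 of spermatocytes and Hspa1l of spermatids, without any heat shock.

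Nef-sp itself was lower in the Nef-sp -/- libraries, with 406.5 and 497 normalized reads against 1843 and 1693 in the controls, or a log2 fold change of -1.97 (SE 0.092, adjusted p = 4.12e-06 by the quasi-likelihood test of edgeR). It was the only gene called among all genes tested. A normalized read count is the count divided by the effective size of the library relative to the mean of the 4 libraries. Transcripts that define elongating spermatids, Prm1, Prm2 and Tnp1, were among the most abundant, with 60170 to 130700 normalized reads per library, and the spermatocyte markers Sycp1 and Sycp3 had 3186 to 5740, so that markers of the labelled tissue were present. Values in lists below are in the order Nef-sp +/- replicates 1 and 2, then Nef-sp -/- replicates 1 and 2.

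No heat shock or chaperone gene differed between the genotypes at an adjusted p of 0.05 (edgeR). Of all genes tested, 0.00932% were called at that threshold. At an unadjusted p below 0.05, 3 of the 71 members were found, or 4.23%, against 4.8% of all genes, and DESeq2 found 1 member at that level and called 0. The members together took up 2.11% and 2.08% of the exon sense reads of the control libraries and 2.12% and 2.08% of those of Nef-sp -/-. The 95% interval of the log2 fold change lay within -0.5 and 0.5 for 65 of the 71 members, and the median distance from the estimate to either bound was 0.143. For the 44 most read members, this distance was at most 0.245.

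**Figure D1:**
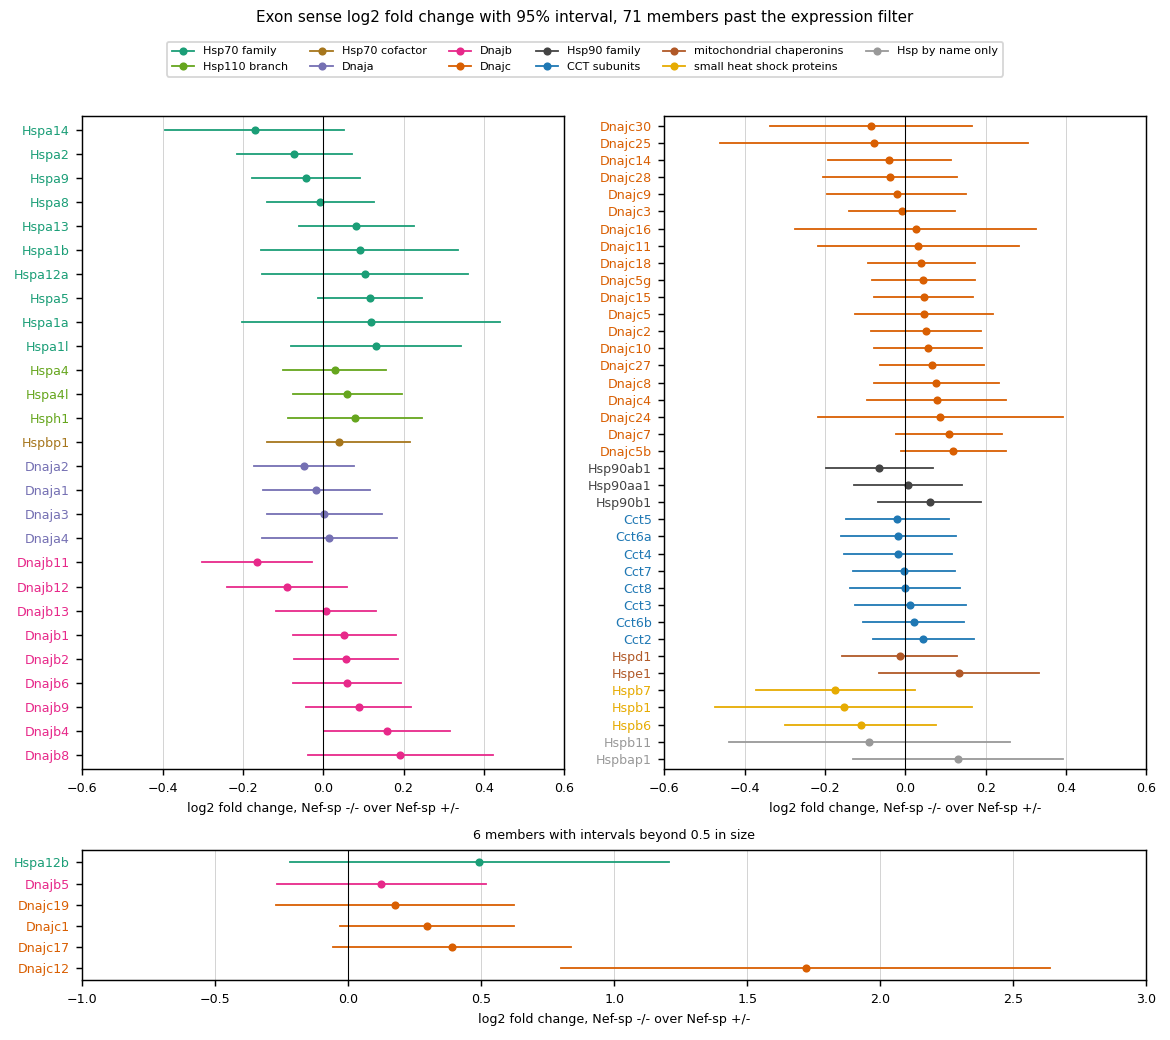
Each point is the exon sense log2 fold change, with Nef-sp +/- as the reference, for 1 of the 71 tested members, with its 95% interval as a line, colored by family and fitted on 2 libraries per genotype. Nearly all points lie close to 0, with 67 of 71 below 0.2 in size, and the 6 members with wider intervals stand in the lower panel on an axis of their own.

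The members leaned slightly to higher values in Nef-sp -/-. Their median log2 fold change was 0.04, with 46 members above 0 and 25 below, against a median of -0.0002 over all genes, of which 49.9% were above 0. In 20 members, or 28.2%, both Nef-sp -/- values exceeded both control values, where 16.4% of all genes had this order. The opposite order was found in 6 members, or 8.45%, against 18.1% of all genes. These are descriptions, since the genes of a family are not independent, and no test was made of the list. When reads were scaled by library totals instead of TMM, the share of members above 0 was 56.3% and that of all genes 40.7%.

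Promoter sequence was examined in the RefSeq windows of build GRCm38.p6, which run from 250 bases before to 50 bases after an annotated start and were matched for 59 of the 73 members. The heat shock element, the binding sequence of the heat shock factors, was searched as 3 alternating GAA and TTC units with any 2 bases between them, on both strands. It was found in the promoters of 4 of the 59 members, or 6.78%, and in 0.662% of all 27025 genes with an entry. These were Dnajb6, Hspd1, Hspe1 and Hsph1, and in Hsph1 it lay after the start. The sequences below are printed because they carry the only such matches upstream of a start, with the matched bases in capitals. Hspd1 and Hspe1 are transcribed away from each other and share a single stretch, which lies 89 to 72 bases before the Hspe1 start and is given on the strand of Hspe1.
Dnajb6, chr5:29735844-29735872, plus strand: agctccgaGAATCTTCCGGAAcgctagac
Hspe1 and Hspd1, chr1:55088051-55088084, plus strand: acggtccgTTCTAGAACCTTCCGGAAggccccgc

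The endoplasmic reticulum stress element, which is bound when unfolded proteins collect in that compartment, was searched as CCAAT and CCACG with any 9 bases between them, on both strands. It was present in 3 of 59 members, or 5.08%, and in 0.137% of all genes with an entry. All of these encode chaperones of the endoplasmic reticulum, namely Hspa5, Hsp90b1 and Dnajc3, and Hsp90b1 held 2 matches on opposite strands. The cAMP response element, TGACG followed by TCA, was found in Dnajc27 alone, or 1.69% of the members, against 2.03% of all genes. These last 2 motifs were chosen after the values were seen, and a match is a description of letters, not of binding. The windows of Hspa5 and Dnajc3 and the longer window of Hsp90b1 are shown, again with the matches in capitals.
Hspa5, chr2:34772017-34772051, plus strand: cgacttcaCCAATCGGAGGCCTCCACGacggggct
Dnajc3, chr14:118937819-118937853, plus strand: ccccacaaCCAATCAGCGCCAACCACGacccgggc
Hsp90b1, chr10:86705525-86705664, minus strand: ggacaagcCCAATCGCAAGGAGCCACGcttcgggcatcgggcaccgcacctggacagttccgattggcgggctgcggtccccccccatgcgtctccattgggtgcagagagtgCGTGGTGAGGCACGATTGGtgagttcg

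Levels were compared between genes per length, as reads per kilobase of exon and per 1e6 reads of the effective library size (RPKM), with exon lengths from GENCODE vM1 on mm9. They spanned from 0.012 for Dnajc6 to 938 for Hspa2. A mean of at least 100 RPKM was reached by 24 members, 26 lay between 10 and 100, 16 between 1 and 10, and 7 below 1. The 8 male germ cell forms accounted for 32.0% to 33.8% of the reads of all 73 members in each library. In the order of levels, the ranges of neighbors over the 4 libraries overlapped in 44 of 72 pairs, so that close ranks are not distinguished. With the longest transcript as the length, the ranks had a Spearman rho of 0.993 with those by the union of exons, across genes that are not replicates.

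**Figure D2:**
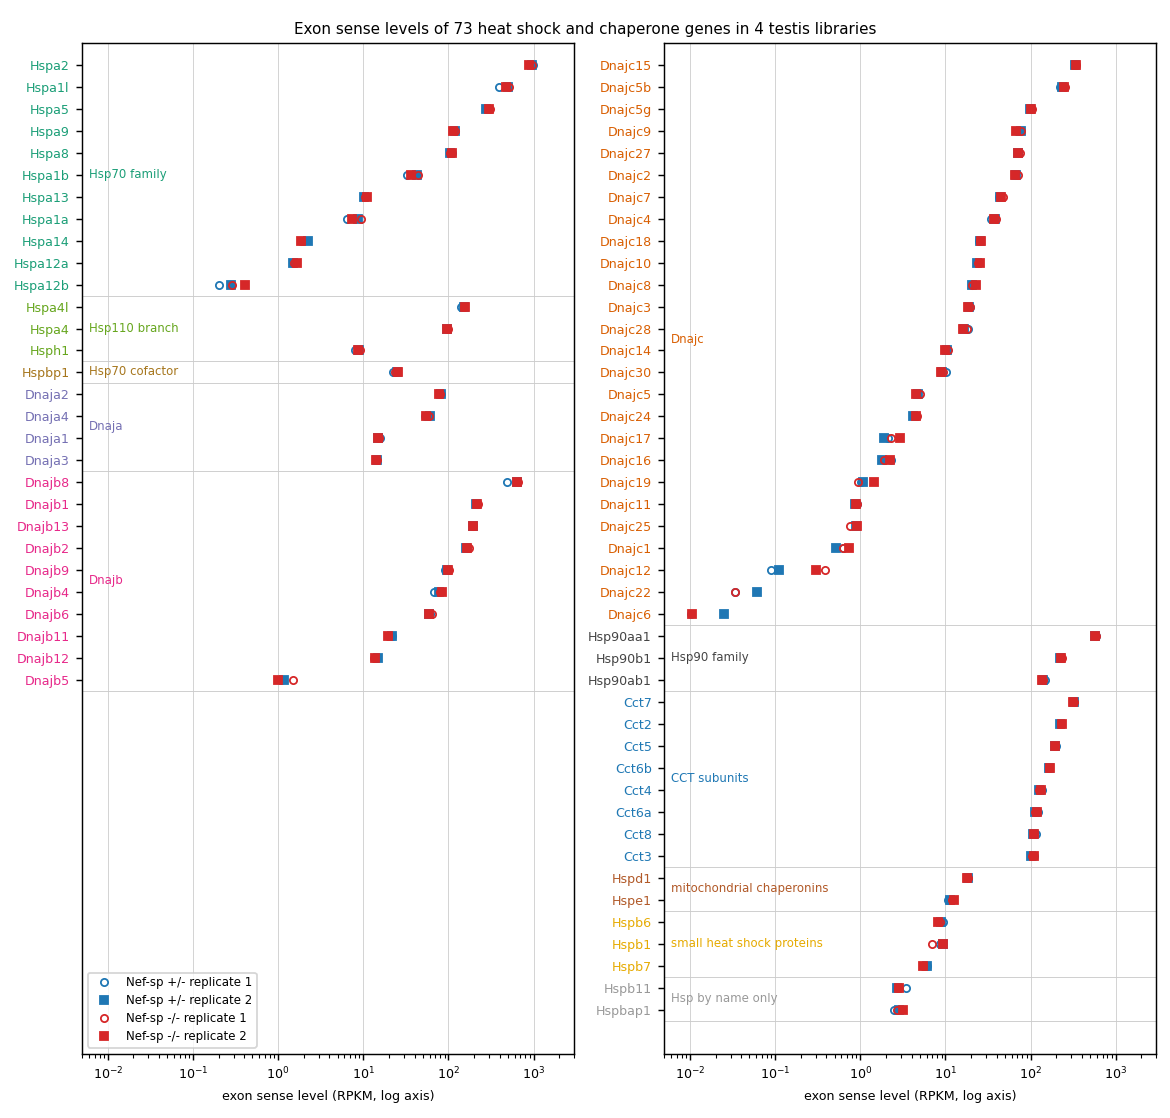
Exon sense level in RPKM on a log axis for all 73 members, 1 marker per library, sorted within families, with Nef-sp +/- in blue and Nef-sp -/- in red. Hspa2, Dnajb8, Hsp90aa1 and Hspa1l were highest, and the 4 markers of a gene mostly coincide; libraries at 0 for Dnajc22 and Dnajc6 are not drawn.

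The Hsp70 family was led by the forms of male germ cells. Hspa2, which is needed for spermatocytes to complete meiosis and lies on chromosome 12 of mm9 at 77505163 to 77507921, had 974, 950, 953 and 877 RPKM, above every other member in each library. In normalized reads these were 45704, 44577, 44720 and 41183, and the log2 fold change was -0.07 (SE 0.065, adjusted p = 0.956, edgeR). The Nef-sp -/- libraries lay at and below the Nef-sp +/- pair, and the genotypes overlapped. Hspa8, the constitutive form of most tissues, was at 104 to 110 RPKM, and Hspa2 exceeded it 7.97 to 9.15-fold in a library, although 75.7% of the 50-base stretches of Hspa8 transcripts also match elsewhere in mm9, a point taken up below.

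Hspa1l, the spermatid form, lies on chromosome 17 at 35109648 to 35116229 beside the heat-inducible genes Hspa1a and Hspa1b. Its levels were 396, 500, 511 and 471 RPKM, which is 11.7 to 12.8 times those of Hspa1b. The ratio is uncertain, since 62.3% of the 50-base stretches of Hspa1b and 9.58% of those of Hspa1l also match elsewhere in mm9. Normalized reads of Hspa1l were 18221, 22991, 23501 and 21656, so that a single control library, Nef-sp +/- replicate 1, stood below the other 3. Hspa1b had 1710, 2205, 2270 and 1918 normalized reads and Hspa1a 346, 478, 509 and 402, with the same library lowest in both. No member of this trio was separated by genotype, with log2 fold changes of 0.13 for Hspa1l, 0.09 for Hspa1b and 0.12 for Hspa1a, and adjusted p from 0.954 to 0.956 (edgeR).

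Hspa5, known as BiP, is the Hsp70 of the endoplasmic reticulum and was the third of its family at 275 to 305 RPKM. Its normalized reads were 18550, 18006, 19954 and 19673, so both Nef-sp -/- libraries were higher. The log2 fold change was 0.12 (SE 0.058, 95% interval -0.01 to 0.25, adjusted p = 0.954, edgeR). Hspa12b, a distant relative known from endothelial cells, showed one of the largest fold changes, 0.49, but rested on 12 to 27 raw reads per library and had an interval of -0.22 to 1.21. It was 0.21 without Nef-sp -/- replicate 2 and 0.79 without Nef-sp +/- replicate 2. Over the 11 Hsp70 genes, 7 were above 0 and 4 below, with a median of 0.09 that became -0.02 without Nef-sp +/- replicate 1.

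Hsp110 proteins, which exchange the nucleotide of Hsp70, were led by another germ cell form. Hspa4l had 142, 151, 151 and 154 RPKM and was 1.48 to 1.60 times Hspa4, which had 95.7, 96.7, 99.6 and 96.7. Hsph1 followed at 7.92 to 9.22. In normalized reads, Hspa4l had 31217, 33070, 33080 and 33935, so that the genotypes did not overlap but nearly touched, with a log2 fold change of 0.06 (SE 0.062). Fold changes of Hspa4 and Hsph1 were 0.03 and 0.08 on the log2 scale, and their libraries overlapped. Hspbp1, a nucleotide exchange factor of another structure, had 623, 693, 650 and 708 normalized reads and also overlapped.

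Among J-domain proteins of class B, Dnajb8, a suppressor of protein aggregation that is made in testis, was highest at 483, 639, 649 and 634 RPKM. It lies on chromosome 6 of mm9 at 88172262 to 88173250. Its normalized reads were 8893, 11780, 11961 and 11683: the low value was again that of Nef-sp +/- replicate 1, and the remaining 3 libraries were close to each other. The log2 fold change was 0.19 (SE 0.105, 95% interval -0.04 to 0.42, adjusted p = 0.954, edgeR), and 0.01 without that library.

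Dnajb1, the main partner of inducible Hsp70, followed at 208 to 223 RPKM. Its normalized reads were 9940, 9583, 10253 and 9996, higher in both Nef-sp -/- libraries, with a log2 fold change of 0.05 (SE 0.059). Dnajb13, a part of the radial spokes of the sperm flagellum, had 5123, 5127, 5171 and 5121 normalized reads and was the steadiest of the germ cell forms. Its log2 fold change was 0.01, with an interval of -0.12 to 0.13.

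Dnajb11 and Dnajb4 were 2 of the 3 members with an unadjusted p below 0.05, in opposite directions. Dnajb11, a partner of Hspa5 in the lumen of the endoplasmic reticulum, had 1281 and 1281 normalized reads in the controls against 1134 and 1153 without Nef-sp. Both Nef-sp -/- libraries were lower, at a log2 fold change of -0.16 (SE 0.062, adjusted p = 0.954, edgeR). Dnajb4, a cytosolic partner of Hsp70, had 5470, 6223, 6387 and 6675 normalized reads, with a log2 fold change of 0.16 (SE 0.071, adjusted p = 0.954, edgeR), and there the Nef-sp -/- libraries were the higher pair. Neither passed the adjusted threshold. Of the 10 class B genes, 8 were above 0, 4 had both Nef-sp -/- libraries above both controls and 2, Dnajb11 and Dnajb12, had both below, against 16.4% and 18.1% of all genes.

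The 4 class A members had log2 fold changes between -0.05 and 0.01. Dnaja2 had 4345, 4276, 4194 and 4146 normalized reads, the only one of the 4 in which the libraries did not overlap, at a log2 fold change of -0.05. Both of its Nef-sp -/- libraries were lower, an order found in 18.1% of all genes. Dnaja4 had 3503, 4065, 3965 and 3693, and Dnaja1 had 2495, 2365, 2426 and 2370. Dnaja2 was the highest of the class at 78.4 to 82.2 RPKM. The median log2 fold change of the class was -0.01.

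Class C proteins share only the J domain, and the 3 most abundant are described first. Dnajc15, a protein of the inner mitochondrial membrane, had 334, 333, 345 and 343 RPKM. Dnajc5b and Dnajc5g, relatives of the synaptic cysteine-string protein that are made in testis, had 223 to 251 and 98.95 to 105 RPKM, against 4.56 to 5.09 RPKM for Dnajc5 itself, the form of neurons. Thus Dnajc5b was 48.3 to 54.6 times Dnajc5 within a library, and Dnajc5g was 20.6 to 22.4 times.

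In all 3 of these class C genes, both Nef-sp -/- libraries were above both controls. Dnajc5b had 5240, 5540, 5876 and 5841 normalized reads (log2 fold change 0.12, SE 0.059, adjusted p = 0.954, edgeR). For Dnajc15 they were 4033, 4020, 4168 and 4141, and for Dnajc5g 2965, 2881, 3051 and 2976, with log2 fold changes of 0.05 and 0.04. The steps between genotypes were small beside the intervals, which all included 0. Over the 24 class C genes tested, 18 were above 0, and 8 had both Nef-sp -/- libraries higher while 0 had both lower, against 16.4% and 18.1% of all genes.

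Dnajc12, a co-chaperone of the aromatic amino acid hydroxylases, had the largest difference of any member, on few reads. Raw reads were 4, 8, 17 and 13, without overlap. Only the Nef-sp -/- libraries reached the minimum count of 10, so the gene entered the test through the group where it was higher. Under the filter of at least 10 reads in every library it was not tested. The log2 fold change was 1.72 (SE 0.416, 95% interval 0.80 to 2.64). It was the third member with an unadjusted p below 0.05, but the adjusted p was 0.859 (edgeR), and its level of 0.22 RPKM was the lowest of the tested members. After Hspa12b came Dnajc17, of the spliceosome, with 51.8, 46.5, 55.4 and 72.2 normalized reads and a log2 fold change of 0.39, and Dnajc1, of the endoplasmic reticulum membrane, with 136, 111, 137 and 161 and a log2 fold change of 0.30. Both had Nef-sp -/- libraries above the controls, with adjusted p of 0.954 (edgeR). These values moved when 1 library was left out, for Dnajc17 from 0.19 without Nef-sp -/- replicate 2 to 0.57 without Nef-sp -/- replicate 1, and for Dnajc1 from 0.13 without Nef-sp +/- replicate 2 to 0.42 without Nef-sp +/- replicate 1.

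Hsp90 showed 1 dominant form in counted reads, although 73.1% of the 50-base stretches of Hsp90aa1 transcripts also match elsewhere in mm9. Hsp90aa1, the inducible cytosolic form that is abundant in male germ cells, had 592, 569, 592 and 574 RPKM, which is 4.01 to 4.26 times Hsp90ab1, the constitutive form at 135 to 148. In normalized reads Hsp90aa1 had 43345, 41673, 43353 and 42004, with a log2 fold change of 0.01 (95% interval -0.13 to 0.14). Hsp90ab1 had 8239, 7800, 7814 and 7514, at -0.07. Hsp90b1, the form of the endoplasmic reticulum whose promoter is shown above, had 16726, 16557, 17624 and 17073, higher in both Nef-sp -/- libraries at 0.06 (SE 0.058).

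The 8 CCT subunits had levels of 106 to 322 RPKM, and their log2 fold changes lay close together, between -0.02 and 0.05. Cct7 was highest with 14801, 14661, 14849 and 14524 normalized reads. Cct2 had 8146, 8084, 8278 and 8466, the only subunit without overlap. Both of its Nef-sp -/- libraries were higher, an order found in 16.4% of all genes. Cct5 had 10485, 10150, 10190 and 10158. Cct6b, the form of the zeta subunit made in testis, had 5757, 5678, 5720 and 5876 normalized reads, or 163 to 169 RPKM. It exceeded Cct6a, the form of other tissues, 1.34 to 1.45-fold in every library.

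Mitochondrial chaperonins were low in counted reads, although 58.5% of the 50-base stretches of Hspd1 and 46.5% of those of Hspe1 also match elsewhere in mm9. Hspd1, or Hsp60, had 905, 912, 908 and 891 normalized reads and 18.1 to 18.5 RPKM. Hspe1, its lid, had 296, 313, 327 and 343 normalized reads, higher in both Nef-sp -/- libraries, with a log2 fold change of 0.13 (SE 0.090, adjusted p = 0.954, edgeR). The pair shares the promoter stretch printed above and overlaps by 112 exon bases on opposite strands, and the intervals of both genes included 0.

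All 3 small heat shock proteins tested had log2 fold changes below 0, and none passed the threshold. Hspb7, known from muscle, had 314, 315, 279 and 278 normalized reads, with a log2 fold change of -0.17 (SE 0.090, 95% interval -0.37 to 0.02, adjusted p = 0.954, edgeR). Hspb6, also of muscle, had 399, 377, 365 and 351, at -0.11. Hspb1 had 165, 180, 134 and 179 and overlapped between the genotypes, at -0.15, and without Nef-sp -/- replicate 1 its value was 0.04. The smooth muscle genes Acta2 and Myh11, which mark peritubular cells, had 883, 818, 725 and 788 and 379, 408, 357 and 395 normalized reads in the same libraries, with log2 fold changes of -0.16 and -0.07, and their part in these values was not tested. In whole testis, fewer cells of a type and less RNA per cell cannot be told apart.

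2 members carry the name only. Hspb11 is a component of intraflagellar transport and had 134, 104, 107 and 111 normalized reads. Hspbap1 binds Hspb1 and had 213, 243, 230 and 275. Both overlapped between the genotypes, with log2 fold changes of -0.09 and 0.13.

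Members were also grouped by compartment, by hand and after the values were seen. The mitochondrial group held Hspa9, Hspd1, Hspe1, Dnaja3, Dnajc15 and Dnajc19. Of these, 4 of 6 were above 0, with a median of 0.02, and among all tested members 64.8% were above 0. This group does not hold every mitochondrial member, and Dnajc30 at -0.09, Dnajc28 at -0.04 and Dnajc11 at 0.03 are outside it. In the endoplasmic reticulum group of Hspa5, Hsp90b1, Hspa13, Dnajb9, Dnajb11, Dnajc1, Dnajc3 and Dnajc10, 6 of 8 were above 0. Of these 8, 5 had both Nef-sp -/- libraries above both controls (16.4% of all genes), and the median was 0.07. Dnajb11 alone of the 8 had both below (18.1% of all genes). The group does not hold every member of that compartment, and Dnajb12 at -0.09 and Dnajc14 at -0.04 are outside it. Of the 3 genes with a stress element in the promoter, Hspa5 and Hsp90b1 were above 0 and Dnajc3 was at -0.01, with 1859, 1815, 1856 and 1795 normalized reads. Among 8 lectins and oxidoreductases of that compartment outside the naming rule, such as calreticulin and the disulfide isomerases, 4 were above 0 and 4 below, with a median of 0.0045, and 0 had an unadjusted p below 0.05.

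The control libraries differed from each other in a few members. Among the 59 members with at least 200 reads on average, 4 were higher in Nef-sp +/- replicate 2 than in replicate 1 by more than 0.3 on the log2 scale, which is 6.78%, against 207 of 7062 such genes, or 2.93%. These were Hspa1a, Dnajb8, Hspa1b and Hspa1l, with log2 ratios of 0.46, 0.41, 0.37 and 0.34. Hspa1a, Hspa1b and Hspa1l are neighbors on chromosome 17. Of the 50-base stretches of Hspa1a and Hspa1b, 61% and 62.3% match elsewhere in mm9, so the reads of these genes may not be independent. For the Nef-sp -/- pair the counts were 0 members and 1.36% of genes. In the other direction, replicate 2 was lower by more than 0.3 in 1 member of the control pair, Dnajc16 (-0.36, against 0.793% of genes), and in 1 member of the Nef-sp -/- pair, Hspa1a (-0.34, against 1.19% of genes). Summed normalized reads of Prm1, Prm2 and Tnp1 were also lowest in Nef-sp +/- replicate 1, at 230230. The other libraries had 286320, 285950 and 281780. Hspa1a and Hspa1b were below their means in Nef-sp -/- replicate 2 as well, at 92.7% and 94.7%, where these markers were at 102% to 105%. Tnp1 alone of the 3 markers had an unadjusted p below 0.05 (log2 fold change 0.18, adjusted p = 0.954, edgeR). Dnajc5b and Hspa4l were also lowest in Nef-sp +/- replicate 1, at 93.2% and 95.1% of their means. Without that library their log2 fold changes were 0.08 and 0.02, against 0.12 and 0.06 with it. Hspa2, Dnajb13, Cct6b and Dnajc5g did not show the low value, being at 99.7% to 104% of their means in that library. The part of the spermatid markers in the values of the members was not tested.

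**Figure D3:**
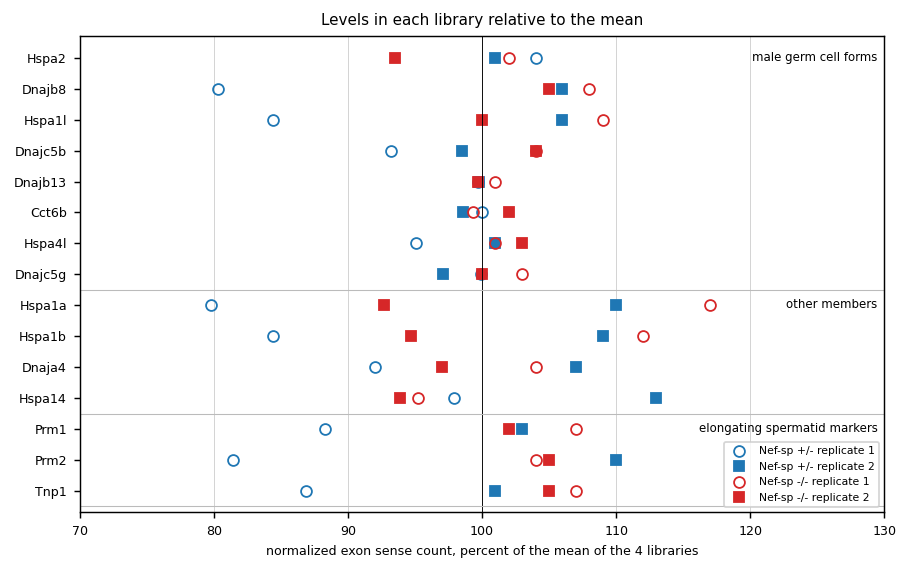
Normalized exon sense reads in each of the 4 libraries as a percent of the gene's own mean, for the 8 male germ cell forms, for the other members with at least 200 reads whose control libraries differed most in the same direction, and for 3 markers of elongating spermatids. The open blue circle of Nef-sp +/- replicate 1 is lowest for Dnajb8 at 80.3%, Hspa1l at 84.4% and Hspa1a at 79.8%, as for Prm1, Prm2 and Tnp1 at 81.4% to 88.3%.

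Calls depended on which control library was kept. Without Nef-sp +/- replicate 2, so that replicate 1 stood alone as the control, 3 members passed: Dnajb8 at a log2 fold change of 0.41 (adjusted p = 9.14e-07), Hspa1l at 0.31 (adjusted p = 7.61e-05) and Dnajb4 at 0.26 (adjusted p = 0.0123, all edgeR), among 252 genes called. Without replicate 1, 0 members and 41 genes were called, Dnajb8 was at 0.01, Hspa1l at -0.03 and Dnajb4 at 0.07. In these fits the lone library is assumed to vary like the other genotype. Leaving out either Nef-sp -/- library gave 0 members.

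Markers of other cell types were compared as well. The Leydig genes Cyp17a1, Cyp11a1, Star and Insl3 summed to 15850, 15863, 14925 and 12065 normalized reads. Cyp17a1 and Cyp11a1 had an unadjusted p below 0.05, with log2 fold changes of -0.27 and -0.35 (adjusted p = 0.954 and 0.859, edgeR). Star and Insl3 were above 0, at 0.08 and 0.18, so that 2 of the 4 were higher and 2 lower. Of the listed markers of Sertoli cells, peritubular cells, macrophages, blood, spermatogonia, spermatocytes and round spermatids, 0 had an unadjusted p below 0.05. Spermatocyte markers summed to 16053, 15369, 14112 and 15599, and those of round spermatids to 18446, 19456, 18834 and 19082, with overlap in both.

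Genes that work with the members but fall outside the naming rule were divided more evenly. Of 57 such genes, 51 were tested, and 23 were above 0 and 28 below, with a median of -0.0025 and 0 with an unadjusted p below 0.05 (edgeR; 4.8% of all genes). Among these were 30 cochaperones of Hsp70 and Hsp90, of which 12 were above 0, and 3 heat shock factors, with log2 fold changes of -0.04 to 0.03. Tcp1, the CCT subunit whose name is outside the rule, was at 0.03, and 5 prefoldin subunits, which hand clients to CCT, were between -0.03 and 0.06. The alpha crystallins were not analysed here.

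Several members share much of their sequence with other places in the genome, and how the authors assigned reads with several matches is not given in the sources used here. Every 50-base stretch of the protein-coding transcripts, the length of a read, was searched in mm9. In 38 of the 73 members no stretch matched outside the gene, and in 8 members more than 40% did. These were Dnajb6 with 79.0%, Hspa8 with 75.7%, Hsp90aa1 with 73.1%, Hspb1 with 63.0%, Hspa1b with 62.3%, Hspa1a with 61%, Hspd1 with 58.5% and Hspe1 with 46.5%. The levels of these genes are uncertain by what was done with such reads, and the ratios above that include them are too. Hspa2, Hspa5, Dnajb8, Dnajb13 and Cct6b had none.

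**Figure D4:**
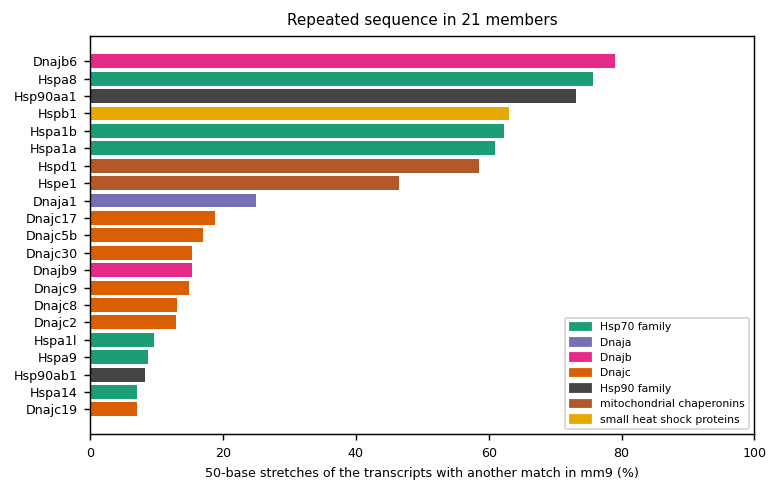
Percent of 50-base stretches of protein-coding transcripts that match mm9 outside the gene, as bars starting at 0, for the 21 members above 5%, colored by family. The bars of Dnajb6, Hspa8 and Hsp90aa1 exceed 70%, while that of Hspa1l is at 9.58%.

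Reads in introns on the sense strand were listed for 52 members, of which 35 passed the filter. None was called at an adjusted p of 0.05, where 0.0294% of all 3403 genes tested were, and 1 had an unadjusted p below 0.05, against 2.35% of genes. This was Cct3, with 9, 8, 10 and 19 raw intron reads and a log2 fold change of 1.11 (adjusted p = 1, edgeR), while its exons were at 0.01. Only its Nef-sp -/- libraries reached the minimum count of 10, so Cct3 entered the test through the group where it was higher. The most intron reads were those of Dnajb11, with 997, 1119, 1070 and 960 normalized reads, which overlapped (log2 fold change -0.06) where its exon reads did not. Dnajb2 and Dnajb6 had 408 to 447 and 409 to 445, and Hspa4l and Cct6b had 202 to 254 and 210 to 232. The genotypes overlapped in all of these.

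Antisense reads over exons were listed for 20 members, of which 11 were tested. Of the 1008 genes tested in this category 0% were called, as were 0 members, and 0 members had an unadjusted p below 0.05, against 2.98% of genes (edgeR). In 6 members they came to more than 1 per 100 sense reads, and in 5 of these exons of another gene are annotated on the opposite strand. Dnajc19 is opposite Fxr1 and had 439 antisense per 100 sense reads, and Dnajc14 is opposite Ormdl2, with 1559 shared exon bases and 41.7 per 100. Dnajb8 shares 525 exon bases with 1700031F10Rik and had 338, 378, 456 and 366 normalized antisense reads, or 3.43 per 100. Dnajc14 had 380, 318, 352 and 347, Dnajc19 had 319, 367, 387 and 373, Hsp90aa1 had 277, 228, 231 and 214, and Dnajc7 had 161, 175, 178 and 168. By contrast, Hspa2 had 8 antisense reads in all 4 libraries against 176542 sense reads.

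**Figure D5:**
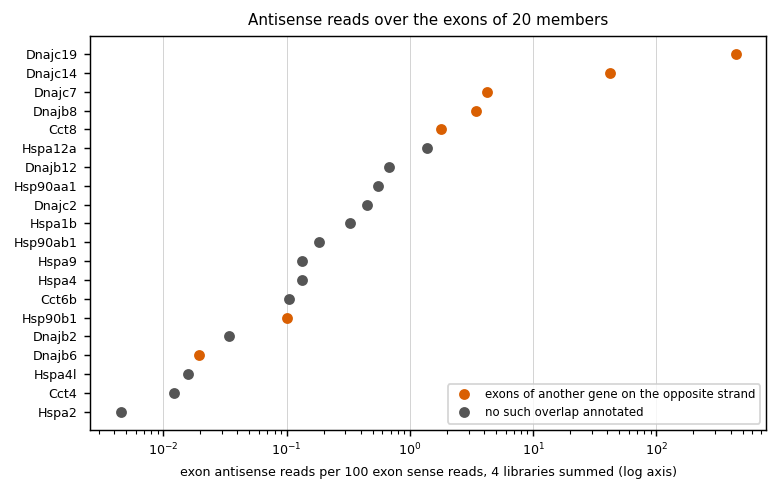
Exon antisense reads per 100 exon sense reads on a log axis, 4 libraries summed, for the 20 members with such reads. Orange points mark members whose exons overlap those of another gene on the opposite strand, and they hold the 5 highest places, from 439 for Dnajc19 to 1.80 for Cct8, while Hsp90b1 and Dnajb6 lie lower.

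Antisense reads in introns were listed for 9 members and tested in 6. None was called, as in 0% of all 1421 genes tested, and 1 had an unadjusted p below 0.05, against 4.5% of genes. It was Dnajb2, with 28, 41, 17 and 14 raw reads and a log2 fold change of -0.75 (SE 0.313, adjusted p = 0.969, edgeR). Dnajc19 dominated with 10196, 11004, 11258 and 11519 normalized reads, in the region opposite Fxr1, and both Nef-sp -/- libraries were higher (log2 fold change 0.10, SE 0.069, adjusted p = 0.969, edgeR). The next were Dnajc17, which is opposite Zfyve19, with 202, 201, 219 and 203, then Dnajb12 and Hsp90aa1 with 24.5 to 29.9 and 17.3 to 23.3. DESeq2 called 0 members in each of the intron and antisense categories, and 0 had an unadjusted p below 0.05 by that test.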

How the data were processed

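Total testis RNA was compared between 2 Nef-sp -/- and 2 Nef-sp +/- libraries, grouped by their labels. The authors removed adapters, mapped reads to mm9 with tools of their own, kept perfect matches and deposited raw counts per feature, annotation category and strand. The authors also deposited a mean normalized signal, a log2 fold change and p-values, raw and adjusted, from DESeq2 (version not given in the sources used here), none of which was used. Library totals were 20659865 to 34442517 counts.

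Counts of each of 4 gene categories (exon and intron, sense and antisense) were fitted separately with edgeR 4.0.16 in R 4.3.3: TMM, filterByExpr with a minimum count of 10, quasi-likelihood test without covariates, Benjamini-Hochberg adjustment over the category, threshold 0.05. The test was checked on simulated data. An exact permutation test of 2 libraries against 2 cannot go below 0.333. Standard errors were derived from the F statistic of the fit, and intervals are at 95%. Alternatives were size factors of DESeq2 1.42.0, library totals, no or a stricter filter, the DESeq2 test, a replicate block and each library left out.

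Members and lists were chosen with earlier results of these data known. Named with values in every library are members with an unadjusted p below 0.05, the 3 highest per family by level, male germ cell forms, the 5 largest fold changes, and the 5 members with the most reads in each other category; a few further members were named after their values were seen, among them Hspa8, Hspa1a, Hspa1b, Dnajc3 and Dnajc5. Positions, exon lengths and 50-base matches are from GENCODE vM1 and mm9, and promoters from RefSeq on GRCm38.p6. Figures were drawn with matplotlib 3.10.9.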

Additional observations from a re-analysis of the deposited data

How the results depend on the processing

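The count of 0 called members in exon sense reads was also 0 under DESeq2 size factors, library totals, no filter, a filter of at least 10 reads in every library, the DESeq2 test and the replicate block, and ranged from 0 to 3 when 1 library was left out, the 3 arising without Nef-sp +/- replicate 2. The count over all genes was 1, was 2 with DESeq2, and ranged from 1 to 252 when 1 library was left out. No member was called in the 3 other categories under any alternative. For the named members under all alternatives, 351 values stayed on the same side of the threshold with the same sign or a change of sign within 1 standard error, 3 crossed it (Dnajb4, Dnajb8 and Hspa1l without Nef-sp +/- replicate 2), and 5 changed sign by more than that, without passing it, when a library was left out (Hspa1l, Dnaja4, Hsph1, Hspb1 and Hspb11). The cause was not tested. Over its alternatives the adjusted p of Dnajc12 lay between 0.243 and 1, and that of Dnajb11 between 0.607 and 1.

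Nothing in the labels ties libraries of the same number to a litter, batch or day. The correlation of the deviations of same-numbered libraries from the genotype means was -0.091 in exon sense reads. With the replicate block, 0 members and 1 gene were called in exon sense reads and 0 members in the other categories. The correlation was below -0.1 in intron sense (-0.154) and intron antisense reads (-0.110), and a block with the numbers crossed, added after seeing the data, called 0 members in either.

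Depth limits the low members most: intervals of 6 of the 71 members reached beyond 0.5 in size, and none of these 6 had more than 165 normalized reads in a library.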
